A study of Rattus norvegicus with 16 samples.

Results

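The course of gene expression under platelet-derived growth factor AA (PDGF-AA) was followed by setting 4 arrays of cells kept in the factor for 6 d against 4 arrays of cells kept in it for 12 h. These 8 arrays, of 16 in the series, were taken by their titles, and no measured value entered the choice. The cells were neural stem and progenitor cells from the neocortex of Sprague-Dawley rat embryos at day E14.5, expanded as monolayers on a coated plastic in 10 ng/ml of the mitogen FGF-2, a fibroblast growth factor. PDGF-AA was given daily at 10 ng/ml in both groups. The labels set PDGF-AA beside FGF-2 as another medium and do not spell out whether any FGF-2 remained with it. The other 8 arrays, 4 at 12 h and 4 at 6 d, came from cells without growth factor. On every array the opposite dye carried reference RNA from FGF-2 cultures, and the sample RNA was in Cy5 on 2 arrays of each group and in Cy3 on the other 2. The labels give no genotype for any group. The sources used here do not say how many embryos or cultures stood behind a preparation.

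Each value below is a deposited log ratio of sample over FGF-2 reference, centred on the median of its array. The base was taken as 2, which the sources used here do not give, so a fold rests on that reading. The direction is likely and not stated. Its basis is that DNA replication genes lay below 0 once the mitogen was removed, so the side of 0 on which those genes lie is no independent result. A level means such a ratio at 1 time, and a difference means the level at 6 d minus the level at 12 h, in which the reference drops out if the same FGF-2 RNA was used at both times. That sameness is an assumption. Differences were tested with limma over all 16 arrays with a term for the dye, standard errors (SE) come from that fit, and p-values were adjusted by Benjamini and Hochberg's method over 12559 tested units, with a threshold of 0.05. A unit is a gene, with the chip's features of 1 mouse symbol averaged, or a feature that has no single symbol. The named genes numbered 6241.

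PDGF-AA is a dimer of A chains that binds the receptor encoded by Pdgfra. The receptor is a tyrosine kinase that passes the signal to the RAS and ERK pathway, which induces its own inhibitors of the sprouty and SPRED families, and to phosphoinositide kinases, which act through AKT and SGK kinases. In the developing forebrain Pdgfra is best known as a marker of oligodendrocyte precursors, and its ligand drives their division. FGF-2 keeps neural stem and progenitor cells dividing, and its removal lets them leave the cycle and form neurons, astrocytes and oligodendrocytes. RNA was taken from whole cultures, so more cells of a type and more RNA per cell cannot be told apart in any difference given here.

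Replicate numbers are names in accession order and pair nothing. The labels speak of at least 2 RNA preparations for the 4 hybridisations of a group without saying which arrays share one, so p-values may measure technical spread. Replicates 1 and 4 at 12 h and replicates 1 and 2 at 6 d carried the sample in Cy5. Each array title also holds a number whose meaning is not given: all 4 arrays at 12 h and replicate 4 at 6 d had one and the same number, and replicates 1 to 3 at 6 d had others. Title number and time therefore cannot be told apart except through replicate 4 at 6 d. A fit with title number as a term takes its 6 d level with PDGF-AA from that 1 array, with the spread borrowed from the other groups. The values it gives below describe how replicate 4 reads and support no call. Replicate 4 at 6 d correlated over all units at 0.345 with replicate 3, the array of its own group with the same dye. With the Cy3 arrays of PDGF-AA at 12 h it correlated at 0.517 and 0.504, and with the 4 Cy3 arrays without factor at 0.566 to 0.686. No 2 arrays were identical, and the dye effect passed the threshold in 4907 units. Over all units, arrays of 1 group correlated at 0.475 to 0.538 (12 h) and 0.290 to 0.345 (6 d) where the dye was the same, and at -0.452 to 0.091 and -0.171 to 0.171 where it was opposite, so dye set much of the spread. Mitosis genes had list means below 0 on all 4 arrays at 12 h, whichever dye carried the sample. The direction of the ratios was read from DNA replication genes below 0, so that side of 0 is no independent result. Few defining markers of the labelled cells were tested. The progenitor filament genes Nes and Vim were measured, Sox2, Pax6, Fabp7 and Hes5 were not among the tested genes, and a ratio to other progenitor cells does not show the level of either gene.

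Between 12 h and 6 d with PDGF-AA, 135 units (1.07%) passed the threshold, of which 80 (0.637%) were higher at 6 d and 55 (0.438%) lower. They held 93 named genes, 55 higher and 38 lower. The largest difference, 4.78 ± 0.42, was that of the probe H3152H08_1, which has no listed gene and was singled out after its values were seen. It read 0.93, 0.51, 0.42 and -0.076 on the 12 h arrays and 3.67, 5.50, 6.24 and 5.48 on the 6 d arrays. Differences past the threshold ran from 0.48 to 4.78 in size, and 57 of the 135 were 1 or over, a 2-fold change at a base of 2. On 106 of them no array of one time overlapped an array of the other, as held for 380 (3.03%) of all units. Over all units the median difference was 0.0088, and 1415 units (11.3%) had an unadjusted p under 0.05, 807 higher (6.43%) and 608 lower (4.84%). The list counts below stand beside these shares and those of the calls, and no list was tested as a set. All 135 differences kept their direction in each alternative fit by unit. With no dye term or on the 8 arrays alone the differences do not change, so their direction was fixed in advance there. The count of calls did change. Fits with title number as a term, or on arrays of the shared title number alone, had 1 array in the 6 d arm and support no call. That count was 211 without replicate 4 at 6 d and 48 without replicate 2 at 6 d.

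Most of the movement was away from the FGF-2 reference. The 80 units that rose had a median level of -0.17 at 12 h and 0.82 at 6 d. In 59 of the 80 the 12 h level was the nearer to 0. In 56 only the 6 d level differed from the reference, in 17 only the 12 h level, in 3 both and in 4 neither. The 55 that fell had median levels of 0.31 and -0.50, and in 39 the 12 h level was the nearer to 0. All 55 lay below 0 at 6 d and 49 lay above 0 at 12 h, and in 36 only the 6 d level differed from the reference, against 13 with only the 12 h level. Over all units, levels past the threshold numbered 378 (3.01%) at 12 h and 404 (3.22%) at 6 d, in tests that leave out the spread of the reference.

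**Figure D1:**
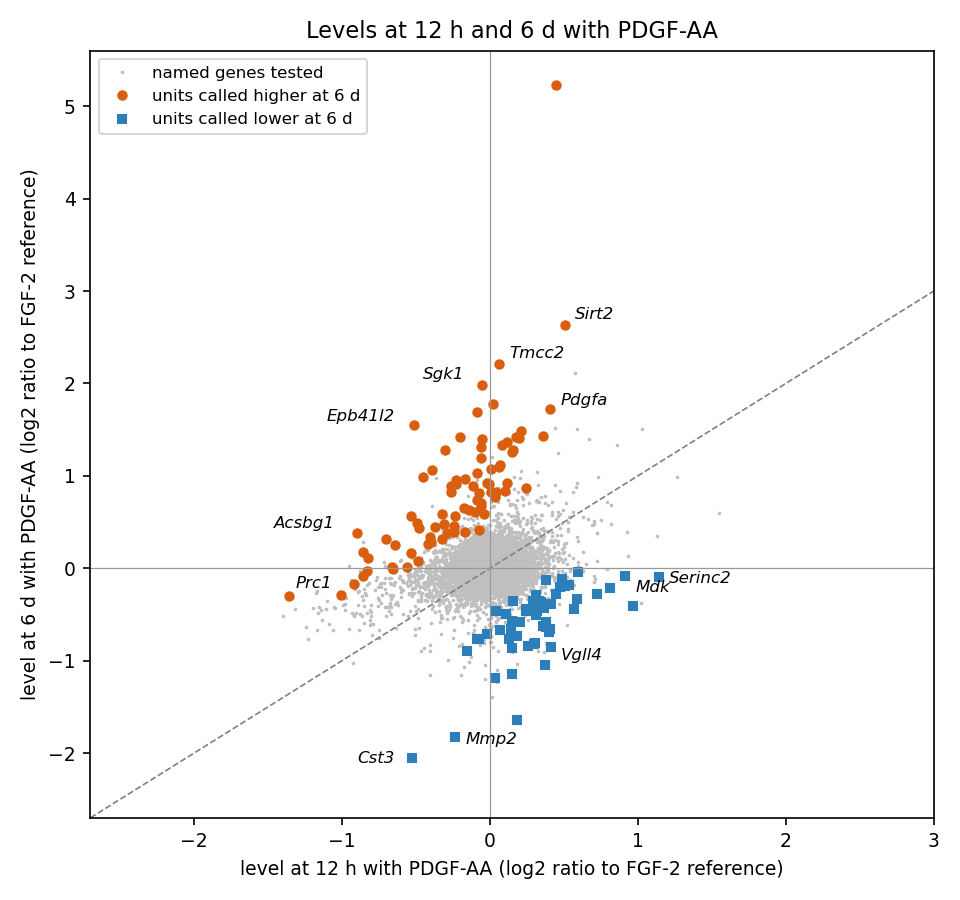
Mean level (log2 ratio to the FGF-2 reference) at 12 h (x axis) and 6 d (y axis) with PDGF-AA, 4 arrays each; all 135 units past the threshold, named or not, are orange circles (80, higher at 6 d) or blue squares (55, lower), grey dots are the named genes tested, and the dashed line marks equal levels. Most orange points lie near 0 on the x axis and far above it on the y axis, while Acsbg1 and Prc1 start at -0.90 and -0.92 and end closer to 0.

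The ligand gene of the pathway itself rose. Pdgfa, which encodes the A chain, had levels of 0.052, 0.77, 0.58 and 0.22 on replicates 1 to 4 at 12 h and 0.83, 1.55, 2.08 and 2.43 at 6 d. All 6 d arrays lay above all 12 h arrays, and the difference was 1.32 ± 0.21 (SE, n = 4 arrays per group), 2.49-fold (adjusted p = 0.00432). The Cy3 arrays of Pdgfa lay above the Cy5 arrays at both times. With no dye term in limma its adjusted p was 0.294. The receptor gene Pdgfra did not pass. Its levels were 0.38, 0.91, 0.23 and 0.23 at 12 h and 0.52, 0.083, 0.29 and 2.71 at 6 d, so the single high array was replicate 4 (difference 0.46 ± 0.51, adjusted p = 0.786, and -0.047 without that array). Pdgfrb, the receptor for B chains, read 0.32, 0.95, 0.46 and 0.51 and then 0.24, 0.45, 1.07 and 1.53. Its groups overlapped, with a difference of 0.26 ± 0.22 (adjusted p = 0.698).

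Sgk1 encodes a kinase whose protein is switched on by phosphoinositide signalling. Its transcript stood near the reference at 12 h and far above it at 6 d. Its levels were 0.50, -0.33, -0.56 and 0.17 at 12 h and 0.95, 2.95, 2.02 and 2.01 at 6 d. The difference of 2.04 ± 0.32 was 4.11-fold (adjusted p = 0.00413). Over all units 0.637% were called higher and 0.438% lower. Of the 18 tested genes of PDGF ligands, receptors and signalling, Pdgfa and Sgk1 were the 2 that passed, 0 fell, and the median difference was 0.20. Both genes were on the list with their behaviour in these data known. Members that did not pass included Fyn, a kinase of the SRC family, at 0.43, the phosphatase gene Ptpn11 at 0.38, and Pik3r1, a regulatory subunit of phosphoinositide kinase, at -0.57.

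Of 4 tested genes that report ERK activity, 1 fell, and the others had differences below 0 that did not pass. Over all units 0.438% were called lower. Spred2, an inhibitor of the RAS to ERK step, read 0.13, -0.043, -0.23 and -0.22 at 12 h and -0.42, -0.88, -0.93 and -0.85 at 6 d. Its arrays did not overlap, and it fell by 0.68 on the log2 scale (adjusted p = 0.0445), with -0.77 to -0.59 as arrays were left out 1 at a time and the call lost in 10 of those 16 fits. Of the 10 losses 6 fell among the 8 fits that left out a PDGF-AA array. Etv5, a transcription factor induced by ERK, read -0.21, -0.55, -0.53 and -0.33 and then -0.24, -1.42, -1.35 and -1.60 (difference -0.75 ± 0.21, adjusted p = 0.126). Spry4, a sprouty inhibitor, had levels of -0.064, 0.60, 0.011 and -0.67 at 12 h and 0.55, -1.92, -1.24 and -2.19 at 6 d, with a difference of -1.17 ± 0.48 (adjusted p = 0.344). In both genes replicate 1 at 6 d lay apart from the other 6 d arrays, within the range of the 12 h arrays. The fourth list member, Ier3, stood at -0.35, so all 4 ERK feedback and target genes were below 0, 1 of them past the threshold. Their median was -0.71, against 0.0088 over all units. Without factor the median difference of the same genes was -0.60.

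Of 11 immediate early genes, the first transcripts to answer a growth factor, 0 passed with limma, and 1 higher and 1 lower had an unadjusted p under 0.05, as did 6.43% and 4.84% of all units. Egr1 read 0.72, -0.037, -0.76 and 0.13 at 12 h and 0.43, -1.06, -1.58 and -0.43 at 6 d (difference -0.67 ± 0.33, adjusted p = 0.468), and its groups overlapped. Fosl2 had a difference of 0.67 that came from replicate 3 at 6 d, at 3.54, against -1.07 to -0.087 on the other 6 d arrays. Among 7 genes of FGF receptors, ligands and their heparan sulphate partners 0 passed, with 1 lower at an unadjusted p under 0.05. The 2 with the largest size were Gpc1, a glypican, at -0.47 and Fgfr1 at 0.44, and for Fgfr1 a single array, replicate 3 at 6 d, read 2.56.

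The largest rise of a named gene with arrays that did not overlap was that of Tmcc2, which encodes a coiled-coil protein of the endoplasmic reticulum. It read 0.067, 0.38, -0.22 and 0.006 at 12 h and 0.86, 2.50, 3.61 and 1.87 at 6 d, a difference of 2.15 ± 0.39 or 4.44-fold (adjusted p = 0.0115, lost at 0.0562 without replicate 2 at 6 d). Sirt2, a deacetylase of tubulin and histones that is abundant in oligodendrocytes, had levels of 0.11, 0.94, 0.96 and 0.0034 at 12 h. At 6 d Sirt2 read 1.51, 2.32, 3.28 and 3.42, a difference of 2.13 ± 0.24 (adjusted p = 0.000334). Every 6 d array of both genes lay above every 12 h array, and in both genes the 6 d arrays spread over more than 1.5 units.

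Epb41l2, a protein that ties the membrane to the spectrin and actin skeleton, had the smallest p among named genes. Its levels were -0.20, -0.77, -0.46 and -0.63 at 12 h and 1.35, 1.80, 1.84 and 1.21 at 6 d. It thus went from below the reference on all 4 arrays to above it on all 4, a difference of 2.07 ± 0.17 (adjusted p = 1.84e-05). Shroom2, an actin-binding regulator of cell shape, rose by 1.78 ± 0.27 (adjusted p = 0.00359), from levels of -0.53, 0.12, 0.36 and -0.31 to 1.66, 1.62, 1.88 and 1.60. Pkp4, an armadillo protein of cell junctions, went from -0.089, -0.66, -0.72 and -0.11 to 1.29, 1.57, 1.22 and 0.18, a difference of 1.46 ± 0.22 (adjusted p = 0.00413). The 6 d arrays of Shroom2 lay close together, while replicate 4 of Pkp4 lay well under the other three. Gja1, a gap junction connexin of astrocytes and progenitor cells, read 0.31, -0.21, -0.57 and 0.22 at 12 h and 0.77, 1.51, 0.97 and 1.55 at 6 d. Its difference was 1.26 ± 0.23 (adjusted p = 0.0132).

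Sema6d, a membrane-bound semaphorin, had levels of 0.18, -0.33, -0.64 and -0.42 at 12 h and 1.25, 1.45, 1.19 and 1.24 at 6 d, a tight group, with a difference of 1.59 ± 0.19 (adjusted p = 0.000578). Lpar1, a receptor for lysophosphatidic acid, went from -0.75, 0.23, 0.51 and -0.80 to 0.56, 0.83, 2.52 and 1.77. The Cy3 arrays of Lpar1 lay above the Cy5 arrays at both times, and the difference with dye in the fit was 1.62 ± 0.30 (adjusted p = 0.0132). Pbx3, a homeodomain cofactor, went from -0.52, -0.49, -0.66 and -0.12 to 1.34, 1.41, 0.47 and 0.71 (1.43 ± 0.19, adjusted p = 0.00127). Dbndd2, which encodes a protein with a dysbindin domain, read -0.22, 0.38, 0.38 and -0.47 at 12 h and 1.28, 1.68, 2.39 and 1.76 at 6 d (1.76 ± 0.21, adjusted p = 0.00052). Both were above all 12 h arrays at 6 d. Plekha1, an adaptor that binds phosphoinositides, rose by 1.46 ± 0.29 (adjusted p = 0.0186), with levels of 1.65, 1.97, 1.66 and 0.34 at 6 d. Replicate 4 again stood below the rest.

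Acsbg1, which activates long-chain fatty acids, rose out of a low level. It read -1.42, -0.90, -0.84 and -0.43 at 12 h and 0.0056, 0.35, 0.38 and 0.81 at 6 d (1.28 ± 0.21, adjusted p = 0.0066), so it was below the FGF-2 reference first and at or above it later. Fnta, the subunit shared by both protein prenyltransferases of the farnesyl and geranylgeranyl type, went from 0.35, 0.048, -0.05 and 0.48 to 0.94, 1.72, 1.92 and 1.35 (1.28 ± 0.20, adjusted p = 0.00432). Hmgcs1, an early enzyme of cholesterol synthesis, rose by 1.10 ± 0.23 (adjusted p = 0.0289), with levels of -0.60, -1.02, 0.063 and -0.57 and 0.93, 0.74, 0.54 and 0.043 that overlapped between replicate 3 at 12 h and replicate 4 at 6 d. Dhcr7, which makes cholesterol in the last step of its branch, rose by 0.68 ± 0.16 (adjusted p = 0.0455), from -0.57, -0.63, -0.92 and -0.55 to -0.066, -0.071, 0.38 and -0.18. Hmgcs1 and Dhcr7 were the 2 of 20 sterol and fatty acid synthesis genes that passed, and 0 fell, where 0.637% of all units were called higher. The list median was 0.21. It was 0.28 without replicate 4 at 6 d and 0.033 with title number in the fit.

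**Figure D2:**
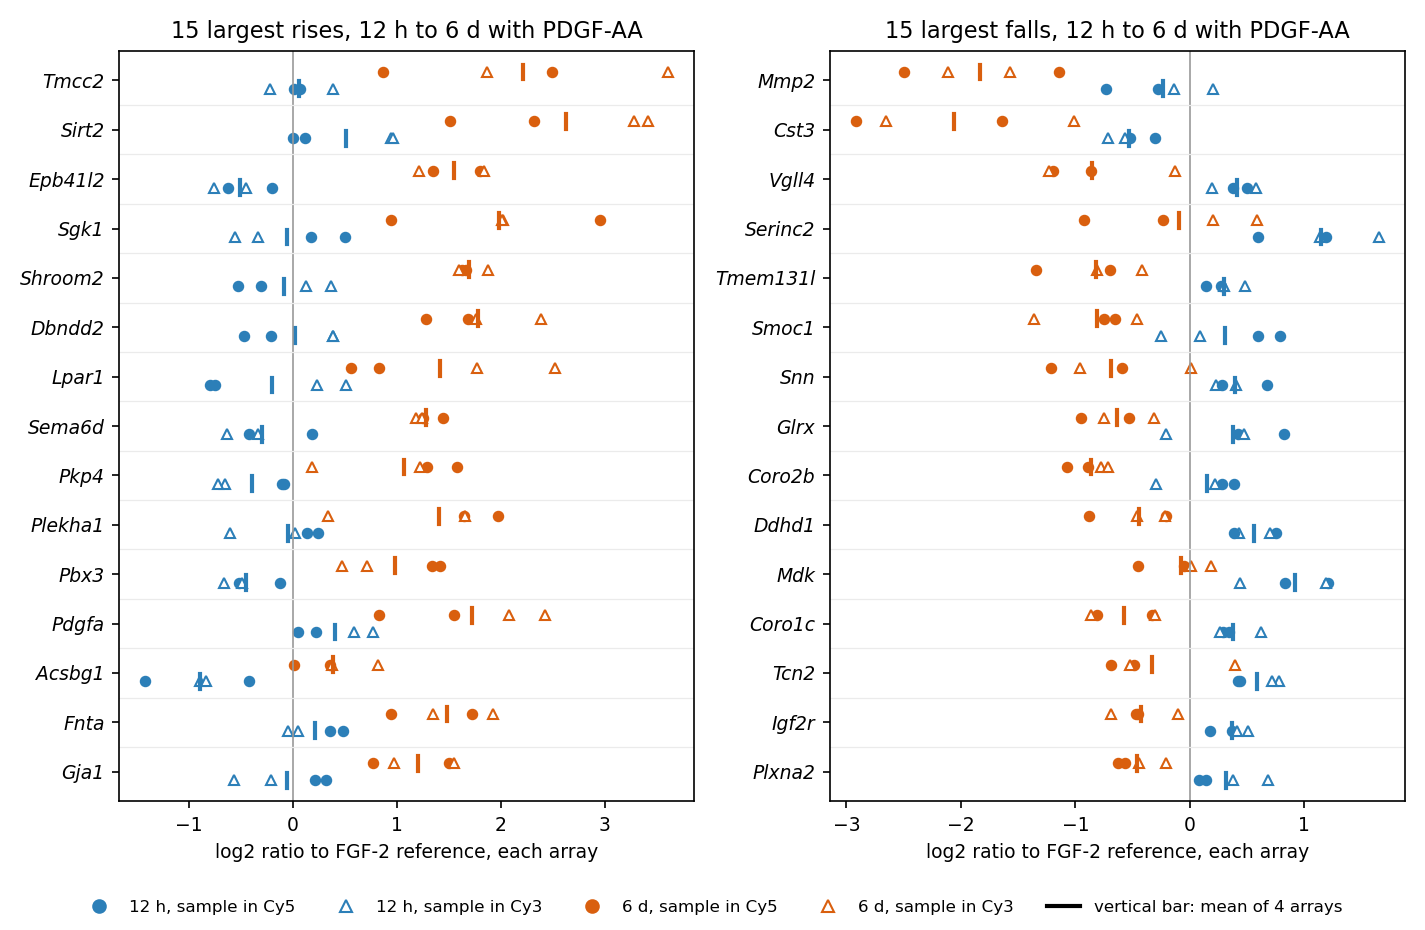
Log2 ratio to the FGF-2 reference on each array for the 15 named genes with the largest rise (left) and the 15 with the largest fall (right) among those past the threshold whose arrays did not overlap between times; blue is 12 h, orange 6 d, circles carry the sample in Cy5, triangles in Cy3, and bars are means of 4 arrays. Sirt2 lies between 0.0034 and 0.96 at 12 h and between 1.51 and 3.42 at 6 d, and Mmp2 moves from -0.73 to 0.20 down to -2.50 to -1.14.

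The largest fall of all units was that of the probe H3155C06_1, also without a listed gene and singled out in the same way, at -1.82 ± 0.23 (adjusted p = 0.00077). Mmp2 and Cst3 had the largest falls of named genes. Mfge8, Snapc2, Iffo2 and Fat4 also fell past the threshold, at -1.37, -1.09, -1.06 and -1.02. They did not meet the rule for named genes given below. Mmp2, a gelatinase that digests the extracellular matrix, read -0.28, -0.14, 0.20 and -0.73 at 12 h and -1.14, -2.50, -2.11 and -1.57 at 6 d. It changed by -1.59 ± 0.25 (adjusted p = 0.00413). Cst3, an inhibitor of cathepsins that astrocytes and progenitor cells secrete, had levels of -0.52, -0.57, -0.71 and -0.30 at 12 h and -1.64, -2.92, -2.66 and -1.01 at 6 d. All its 12 h arrays read below 0, though that level did not pass against the reference with limma (adjusted p = 0.254). Cst3 changed by -1.53 ± 0.30 (adjusted p = 0.0184). The size for Cst3 was -0.45 with title number in the fit, and so from replicate 4 alone. Smoc1, a secreted calcium-binding protein of the matrix, changed by -1.11 ± 0.22 (adjusted p = 0.0196), from 0.79, 0.09, -0.26 and 0.60 to -0.66, -0.75, -1.36 and -0.46.

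Other falls began above the reference and ended at it. Mdk, the heparin-binding growth factor midkine, read 1.21, 1.19, 0.44 and 0.83 at 12 h and -0.46, -0.053, 0.19 and 0.0068 at 6 d (-0.995 ± 0.20, adjusted p = 0.0227). Serinc2, a membrane protein of the serine incorporator family, had the highest 12 h level of the named falls. It went from 1.19, 1.65, 1.14 and 0.59 to -0.93, -0.24, 0.20 and 0.59 (-1.24 ± 0.23, adjusted p = 0.0152), and the lowest 12 h array lay just above the highest 6 d array. Tcn2, which carries cobalamin in the blood, changed by -0.92 ± 0.17 (adjusted p = 0.0163), and at 6 d its replicate 4 was at 0.40 while the others lay from -0.69 to -0.49. Uchl1, a ubiquitin hydrolase abundant in neurons, went from 0.55, 0.66, 0.47 and 0.34 to -0.21, -0.24, -0.29 and -0.013 (-0.69 ± 0.14, adjusted p = 0.0221). It thus went from above the reference to a level that did not differ from it past the threshold. The Uchl1 call was lost in 4 of 16 fits without an array, at -0.74 to -0.63. All 4 were among the 8 fits that left out a PDGF-AA array.

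Further genes had mean levels above 0 at 12 h and below 0 at 6 d. The 12 h level passed against the reference with limma for Igf2r (adjusted p = 0.0488) and Ddhd1 (adjusted p = 0.00781). For the other falls given here it did not pass, while their 6 d levels did. Vgll4, a cofactor that restrains TEAD transcription factors, read 0.38, 0.57, 0.19 and 0.50 at 12 h and -0.86, -1.20, -1.23 and -0.13 at 6 d (-1.27 ± 0.20, adjusted p = 0.00432). Igf2r, the receptor that clears the ligand Igf2 and sorts lysosomal enzymes, had levels of 0.37, 0.51, 0.42 and 0.17 and -0.45, -0.47, -0.10 and -0.69 (-0.79 ± 0.14, adjusted p = 0.00779). Among 7 genes of the insulin-like growth factor system Igf2r was the only 1 to pass, where 1.07% of all units did. Igfbp5, a binding protein of those factors, stood at 0.92 (adjusted p = 0.404). Plxna2, a semaphorin receptor, changed by -0.78 ± 0.14 (adjusted p = 0.00907) and Tmem131l, a membrane protein gene, by -1.12 ± 0.18 (adjusted p = 0.00432). The actin-binding coronin genes Coro2b and Coro1c changed by -1.01 ± 0.15 (adjusted p = 0.00396) and -0.96 ± 0.20 (adjusted p = 0.0289). Ddhd1, a phospholipase, went from 0.38 to 0.75 at 12 h to -0.88 to -0.20 at 6 d (-1.01 ± 0.15, adjusted p = 0.00359). Snn, the small membrane protein stannin, and Glrx, a glutaredoxin that reduces protein thiols, had the remaining large falls with arrays that did not overlap. They stood at -1.09 ± 0.23 (adjusted p = 0.0262) and -1.01 ± 0.23 (adjusted p = 0.0437).

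Which of these calls rest on a single array was checked by leaving out each of the 16 arrays in turn. The 8 fits that left out an array without factor kept each difference and changed only the shared spread. Sirt2, Epb41l2, Sgk1, Shroom2, Dbndd2, Sema6d, Pkp4, Pbx3, Pdgfa, Acsbg1 and Fnta stayed past the threshold in all 16 fits, as did Mmp2, Vgll4, Tmem131l, Coro2b, Ddhd1, Igf2r and Plxna2. Several of these calls rest on the spread shared with the arrays without factor. In a fit of the 8 PDGF-AA arrays alone the differences were the same, and 12 of the 93 named calls stayed. Sgk1 (adjusted p = 0.0619 with limma), Mmp2 (0.0641), Acsbg1, Fnta, Vgll4, Coro2b, Ddhd1, Igf2r and Plxna2 were lost there. In the fit with no dye term Sirt2 (adjusted p = 0.0583 with limma), Pkp4 (0.0639), Plxna2 (0.0760) and Pdgfa (0.294) were lost. As single arrays were left out, Tmcc2 (1.71 to 2.58) and Gja1 (1.05 to 1.496) lost the call without replicate 2 at 6 d. Lpar1 (1.46 to 1.73) lost it without replicate 2 at 6 d or replicate 2 at 12 h. Serinc2 (-1.40 to -1.02) needed replicates 1 and 2 at 12 h, and Tcn2 (-1.09 to -0.75) replicate 2 at 6 d and replicates 1 and 4 at 12 h. Plekha1 (1.28 to 1.82) needed replicates 2 and 3 at both times. Cst3 (-1.89 to -1.23), Smoc1 (-1.31 to -0.98) and Snn (-1.36 to -0.88) were lost without replicate 2 or 3 at 6 d or replicate 1, 2 or 4 at 12 h, and Mdk (-1.17 to -0.86) without replicate 1 or 2 at 6 d or those 3 arrays at 12 h. Coro1c (-1.06 to -0.85) and Hmgcs1 (0.96 to 1.35) were each lost in 6 of the fits, Dhcr7 (0.54 to 0.74) in 13 and Glrx (-1.18 to -0.85) in 10. Among the 8 fits that left out a PDGF-AA array, Coro1c, Hmgcs1 and Glrx were each lost in 6 and Dhcr7 in 7. Of all 135 calls 45 stood in each fit that left out a PDGF-AA array, and 25 of the 93 named genes did.

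Genes of mitosis and of DNA replication had median levels below the FGF-2 reference at 12 h and nearer to it at 6 d. The mitosis list also rose without factor, with a median difference of 0.58. In mitosis, 47 of 49 tested genes had a difference above 0 and the list median was 0.54, with median levels of -0.89 at 12 h and -0.32 at 6 d. Of the 49, 2 passed the threshold, both higher, where 0.637% of all units were called higher. At an unadjusted p under 0.05, 25 were higher and 1 lower, against 6.43% and 4.84% of all units. List means by array were -0.96, -0.997, -0.72 and -0.65 at 12 h and 0.18, -0.38, -0.35 and -0.79 at 6 d. Replicate 4 at 6 d lay within the 12 h range. The median was 0.66 without that array, with 5 members past the threshold, and 0.12 with title number in the fit, which rests on that array.

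The 2 mitosis genes that passed were Prc1 and Cenph. Prc1, which bundles microtubules of the central spindle, read -1.22, -1.08, -0.73 and -0.65 at 12 h and 0.26, -0.11, -0.22 and -0.59 at 6 d (0.75 ± 0.17, adjusted p = 0.0383). These are means of 4 features, of which 1 stood apart, with a 12 h mean of 0.077 and a difference of 0.17. The other features had differences of 0.86 to 1.03. Cenph, a kinetochore protein gene, went from -0.14, -0.97, -0.98 and -0.47 to 0.45, 0.39, 0.31 and -0.15 (0.89 ± 0.18, adjusted p = 0.0252). As single arrays were left out, the Prc1 call was lost in 11 of 16 fits (0.59 to 0.88) and the Cenph call in 5 (0.78 to 0.98). Of these losses 6 and 5 fell among the 8 fits that left out a PDGF-AA array. Prc1 did not overlap between the times and Cenph did, by replicate 1 at 12 h and replicate 4 at 6 d. Top2a, the topoisomerase that untangles sister chromatids, read -1.32, -1.86, -1.55 and -0.85 and then 0.68, -0.47, -0.72 and -1.55 (0.88 ± 0.26, adjusted p = 0.134). Ube2c, which works with the anaphase-promoting complex, had levels of -1.04, -1.66, -1.86 and -0.71 and 0.12, -0.091, -0.43 and -1.37 (0.88 ± 0.21, adjusted p = 0.0567). In Top2a and Ube2c replicate 4 at 6 d was the lowest of its group and lay inside the 12 h range, while the 3 other 6 d arrays lay above all 12 h arrays.

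Genes of mitosis are known to share promoter elements, a CCAAT box and a cell cycle element with the letters TTTGAA, so the promoters of a member that passed and of Top2a are shown. Each runs from 250 bases before to 50 after the gene's start in RefSeq on rat build GRCr8, 5′ to 3′ along the gene, with CCAAT and TTTGAA on either strand in capitals (ATTGG and TTCAAA are their reverse). Prc1 lies at chr1:143659231-143659530 on the plus strand and holds 2 CCAAT and 1 TTTGAA. Top2a lies at chr10:84473044-84473343 on the minus strand and holds 4 CCAAT and 1 TTTGAA.
Prc1: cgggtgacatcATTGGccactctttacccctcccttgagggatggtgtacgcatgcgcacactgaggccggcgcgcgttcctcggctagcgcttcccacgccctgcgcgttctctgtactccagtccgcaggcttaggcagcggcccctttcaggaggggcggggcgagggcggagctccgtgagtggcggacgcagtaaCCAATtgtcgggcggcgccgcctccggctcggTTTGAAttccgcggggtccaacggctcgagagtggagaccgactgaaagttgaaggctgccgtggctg
Top2a: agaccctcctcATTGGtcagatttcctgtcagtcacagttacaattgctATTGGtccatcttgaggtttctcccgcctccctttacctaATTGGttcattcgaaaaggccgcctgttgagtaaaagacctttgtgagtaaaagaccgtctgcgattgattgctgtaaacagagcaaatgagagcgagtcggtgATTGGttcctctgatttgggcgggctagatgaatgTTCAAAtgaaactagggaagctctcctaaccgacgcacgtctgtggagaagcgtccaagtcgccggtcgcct
Of 43 promoters listed for 42 of the 49 genes, 74.4% held CCAAT, 74.4% held TTTGAA and 62.8% held both, searched on both strands with matches of the motifs free to overlap. Of all 33469 promoters of that table, 37.5%, 18.3% and 7.41% did. These are matches of letters in the window and no measure of binding.

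Genes that copy DNA had smaller list medians, a difference between lists that was not tested. Among 29 genes of DNA synthesis and nucleotide supply 1 passed, Pold2, a subunit of DNA polymerase delta, with levels of -0.81, -0.99, -1.29 and -0.35 at 12 h and 0.42, -0.0063, -0.12 and -0.62 at 6 d (0.78 ± 0.18, adjusted p = 0.0474). That call was lost in 12 of the 16 fits that left out 1 array (0.66 to 0.91), 6 of them among the 8 that left out a PDGF-AA array. The list median was 0.36. It was 0.48 without replicate 4 at 6 d and -0.027 with title number in the fit, which rests on that array. At an unadjusted p under 0.05, 11 members were higher, against 6.43% of all units. Of 18 genes of the MCM helicase and origin licensing 0 passed with limma and 2 were higher at an unadjusted p under 0.05. Those were Cdc45, which activates the helicase, at 0.58 (adjusted p = 0.258) and Gins4, a part of the same complex, at 0.52 (adjusted p = 0.18). The MCM list median of 0.22 became 0.35 without replicate 4 at 6 d and -0.21 with title number in the fit. On replicate 4 at 6 d the MCM list mean was -0.65, below the 12 h arrays (-0.46 to -0.20).

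Regulators of the G1 phase went both ways, and 0 of 18 passed with limma. At an unadjusted p under 0.05, 4 were higher and 5 lower, against 6.43% and 4.84% of all units. Cdkn1c, an inhibitor of cyclin-dependent kinases, had the largest size. It read 0.29, 0.92, 0.84 and 0.24 at 12 h and -0.34, 1.42, 2.69 and 4.68 at 6 d, a group that spanned from below all 12 h arrays to far above them (1.54 ± 0.58, adjusted p = 0.284). Gadd45g, a growth arrest gene, had levels of 0.56, 1.44, 1.502 and 0.57 and -1.40, -0.99, -0.61 and 1.496 (-1.39 ± 0.35, adjusted p = 0.075). Here replicate 4 at 6 d was as high as the 12 h arrays and the others lay below all of them.

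**Figure D3:**
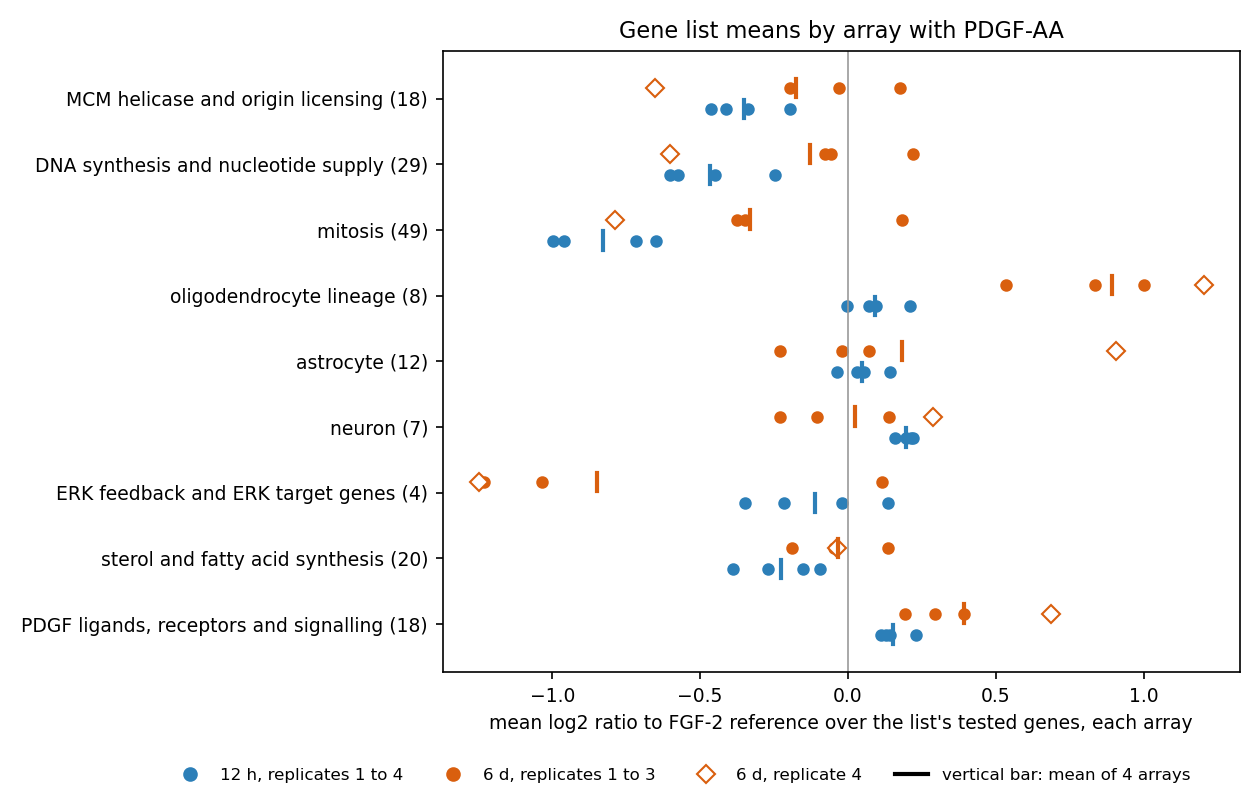
Mean log2 ratio to the FGF-2 reference over the tested genes of 9 lists (number of genes in brackets) on each array with PDGF-AA; blue is 12 h, orange 6 d, the open diamond is replicate 4 at 6 d, and bars are means of 4 arrays. In mitosis the diamond, at -0.79, lies among the 12 h arrays (-0.997 to -0.65), and in the astrocyte list it lies above all other arrays.

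For the cell types that such cultures can form, few genes of each list passed, where 1.07% of all units did. Of 8 tested oligodendrocyte lineage genes, Sirt2 and Tmcc2 passed, both higher, with a list median of 0.50. Both were listed with their behaviour in these data known. List means were 0.093, 0.21, -0.0026 and 0.072 at 12 h and 0.54, 0.84, 1.000 and 1.20 at 6 d. Sirt2 and Tmcc2 had the largest differences of the list, and the other 6 genes, of which 0 passed with limma, ranged from -0.23 to 0.74. Cd9, a tetraspanin, stood at 0.74 (adjusted p = 0.0849), Cryab, a small heat shock protein gene, at 0.54, and Qk, an RNA-binding protein of myelinating cells, at -0.23. Of the 8 defining markers of that lineage Pdgfra alone was tested.

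Of 12 astrocyte genes, Acsbg1 and Gja1 rose and Cst3 fell, with a median of 0.089. The list means were -0.037, 0.14, 0.029 and 0.052 at 12 h and -0.23, -0.019, 0.071 and 0.91 at 6 d. Replicate 4 at 6 d lay apart from the others, and the median was -0.11 without it and 0.52 with title number in the fit. Clu, a secreted chaperone, stood at 1.08 (adjusted p = 0.446), Sparcl1, a secreted matrix protein of astrocytes, at -0.95 (adjusted p = 0.131) and the glutamate transporter gene Slc1a3 at 0.071. Among 7 neuron genes Uchl1 was the 1 that passed, and the median was -0.20. It was -0.30 without replicate 4 at 6 d and 0.11 with title number in the fit. Gap43, a growth cone protein gene, stood at 0.56 (adjusted p = 0.0968) and the neuronal tubulin gene Tubb3 at -0.20.

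Of 11 neural stem and progenitor genes 0 passed with limma, with 2 lower at an unadjusted p under 0.05, against 4.84% of all units. Nes, the intermediate filament nestin, had levels of -1.16, -0.24, 0.31 and -0.52 at 12 h and -1.60, -1.14, -0.48 and -0.11 at 6 d (-0.43 ± 0.17, adjusted p = 0.34), and its groups overlapped. Tnc, a matrix glycoprotein of progenitor cells, read 0.93, 1.42, 1.18 and 0.58 and then 0.41, 1.59, 2.17 and 1.87 (0.48 ± 0.28, adjusted p = 0.558), above the reference on all 8 arrays. In the extracellular matrix and mesenchymal list 1 of 19 passed, Mmp2, downward, where 0.438% of all units were called lower. The list median was 0.20 and the collagen gene Col3a1 stood at 0.72 (adjusted p = 0.09). Of the defining mesenchymal markers Lum and Dcn were tested, at 0.20 and 0.29.

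Markers of cells that do not arise from neocortical progenitors showed 0 calls with limma. Of 5 microglia and macrophage genes and 4 endothelial genes, 0 had an unadjusted p under 0.05. C1qa, a complement gene of microglia, stood at -0.45 and C1qc at 0.30. Pecam1 and Esam, adhesion genes of endothelium, stood at -0.21 and -0.16. As ratios to the reference culture, these values give no level for such cells.

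Housekeeping and metabolic lists held few calls, where 1.07% of all units passed. In chaperones of the endoplasmic reticulum and cytosol 1 of 30 passed, the disulfide isomerase gene Pdia6, with levels of -0.55, -0.26, -0.53 and -0.63 at 12 h and 0.083, -0.23, 0.41 and 0.037 at 6 d (0.56 ± 0.12, adjusted p = 0.033, lost in 7 of 16 fits without an array, at 0.48 to 0.64). Of the 7 losses 6 fell among the 8 fits that left out a PDGF-AA array. In the lysosome list 1 of 20 passed, Cst3, and the protease gene Ctsh stood at -0.71 (adjusted p = 0.0511). Of 19 genes of glycolysis and hypoxia 0 passed with limma. At an unadjusted p under 0.05, 6 were higher, against 6.43% of all units. Among them were Bnip3, a mitophagy receptor, at 0.53 and the glycolytic enzyme gene Pgam1 at 0.51. Among 20 glutathione and antioxidant genes 0 passed, with 4 higher and 2 lower at an unadjusted p under 0.05, and Gsta4, a glutathione transferase, stood at -0.80. In the BMP, TGF-beta and Notch pathway 0 of 13 passed and 1 was higher at an unadjusted p under 0.05, Rbpj, the transcription factor of Notch signalling, at 0.36.

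For genes of large cell machines the medians were -0.059 over 25 cytosolic ribosomal proteins, 0.0012 over 46 mitochondrial ones, 0.047 over 54 genes of oxidative phosphorylation, -0.026 over 35 of the proteasome and -0.038 over 11 of the vacuolar ATPase, against 0.0088 over all units. That of the vacuolar ATPase was -0.095 without replicate 4 at 6 d and 0.27 with title number in the fit. None of these 171 genes passed with limma (0 of them). At an unadjusted p under 0.05, 6 were higher and 8 lower, against 6.43% and 4.84% of all units. Psmd13, a lid subunit of the proteasome, did not overlap between the times and stood at -0.40 (adjusted p = 0.0941). Rps9, a ribosomal protein gene, stood at -0.36 and Atp6v1a, the catalytic subunit of the proton pump, at 0.35.

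The smallest differences past the threshold were near 0.5. Ugp2, which makes the glucose donor for glycogen, rose by 0.48 ± 0.10 (adjusted p = 0.033) and Lmna, a nuclear lamin, by 0.56 ± 0.12 (adjusted p = 0.0325). Ppp4r1, Wwc1 and Sfr1 fell, at -0.50, -0.51 and -0.51. As the 16 arrays were left out 1 at a time, the call was lost in all 16 fits for Ppp4r1, in 13 for Sfr1, in 12 for Wwc1, and in 6 each for Ugp2 and Lmna. Among the 8 fits that left out a PDGF-AA array, the losses were 8, 6, 7, 6 and 6 in the same order.

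Cells without factor were followed over the same times, and the course with PDGF-AA was compared with theirs through an interaction term, the difference with PDGF-AA minus the difference without factor. In limma 0 units (0%) passed that test, where the lowest adjusted p was 0.181 and 497 units (3.96%) had an unadjusted p under 0.05. The interval of an interaction at 95% confidence reached 0.51 to either side in the median unit, so moderate differences between the courses were not detectable with 4 arrays per group. Without factor 235 units (1.87%) passed between 12 h and 6 d, 178 higher and 57 lower. Both courses were read against the FGF-2 reference and share the dye term and the estimate of spread, so values are set side by side.

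Sirt2 rose by 2.13 ± 0.24 with PDGF-AA and 2.42 ± 0.24 without factor, an interaction of -0.29 (95% interval -1.001 to 0.42). Pdgfa rose by 1.32 ± 0.21 and 1.49 ± 0.21, an interaction of -0.18 (-0.80 to 0.45). For Mmp2 the values were -1.59 ± 0.25 and -1.79 ± 0.25, with an interaction of 0.20 (-0.54 to 0.94). In these 3 genes the intervals include 0 without excluding a difference either way. Sgk1 had 2.04 ± 0.32 with PDGF-AA and 0.84 ± 0.32 without, an interaction of 1.20 (0.26 to 2.15) that did not pass (adjusted p = 0.995). Top2a had 0.88 ± 0.26 and 1.42 ± 0.26, an interaction of -0.54 (-1.30 to 0.23). List medians with PDGF-AA and without factor were 0.54 and 0.58 for mitosis, 0.36 and 0.48 for DNA synthesis, and 0.22 and 0.32 for the MCM list. They were 0.50 and 0.49 for oligodendrocyte lineage genes and -0.71 and -0.60 for ERK genes. For neuron genes the sign differed, at -0.20 and 0.19. No list was tested between the courses.

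The named genes with the smallest interaction p-values did not pass either. Entpd2, an ecto-ATPase of astrocytes and progenitor cells, changed by 0.39 ± 0.17 with PDGF-AA and 1.83 ± 0.17 without factor, an interaction of -1.44 (-1.94 to -0.94, adjusted p = 0.181). Myl4, a myosin light chain gene, had 1.04 ± 0.20 and -0.082 ± 0.20. Its levels with PDGF-AA were -1.82, -0.40, -0.46 and -0.75 at 12 h and -0.50, 0.084, 0.42 and 0.71 at 6 d, and its interaction was 1.12 (0.52 to 1.71, adjusted p = 0.995). Lgals7, a galectin, Pnp, a purine salvage enzyme, and Psmg3, a proteasome assembly chaperone, had interactions of 0.84, 0.93 and 0.64. Of these 5 genes only Myl4 passed for the course with PDGF-AA itself (adjusted p = 0.0164).

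**Figure D4:**
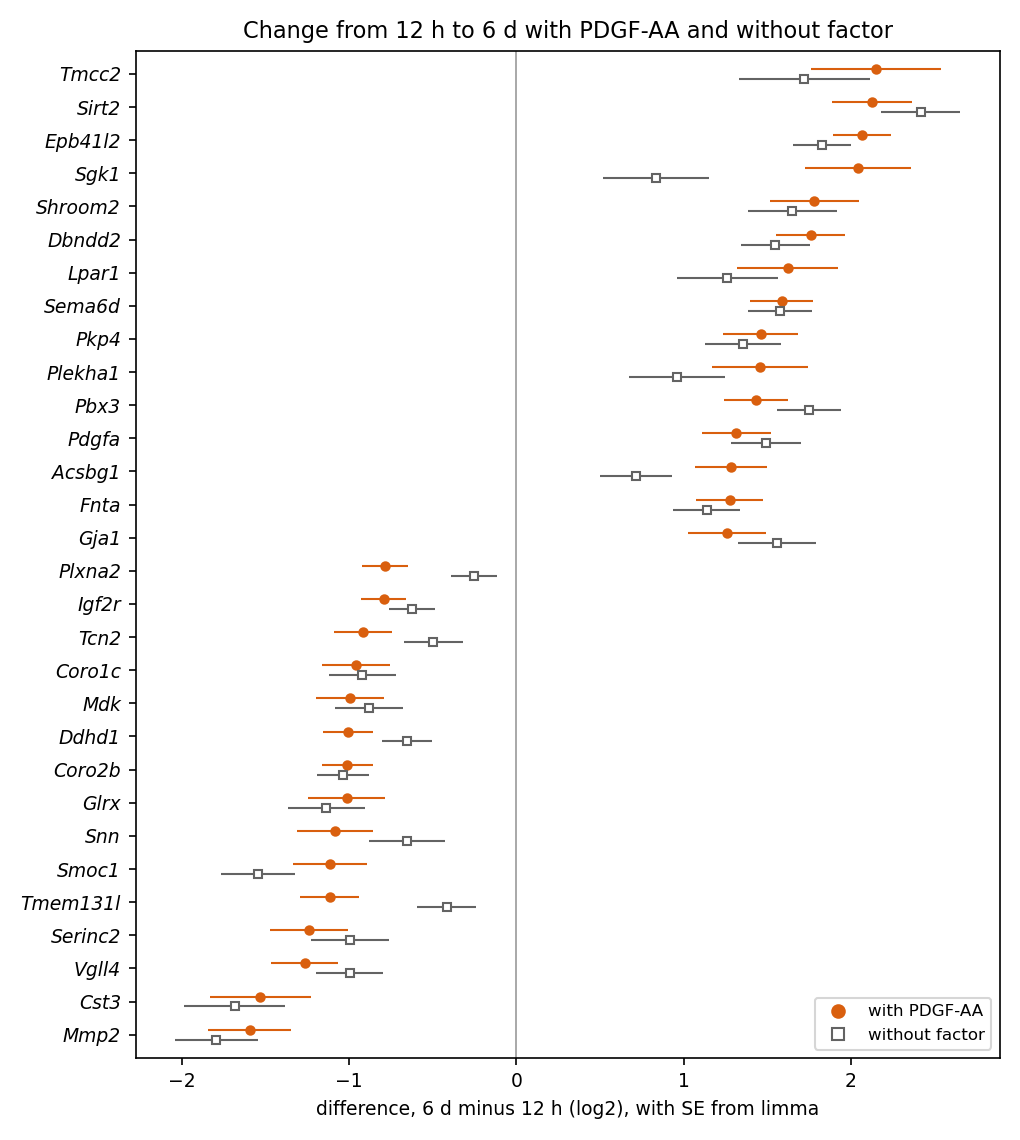
Difference from 12 h to 6 d (log2, with its SE from limma) with PDGF-AA (orange circles) and without factor (open squares) for 15 named rises and 15 named falls. These were the largest with PDGF-AA past the threshold without overlap of arrays and with features of one sign. The genes were thus chosen on the PDGF-AA values. Sgk1 stands at 2.04 with PDGF-AA and 0.84 without factor and Sirt2 at 2.13 and 2.42, and no interaction passed the threshold.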

How the data were processed

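The authors deposited 1 log2 ratio per feature and array, the base being taken as 2. Background correction, normalization and filters of the authors are not given in the sources used here. Per the labels, total RNA (40 µg) was hybridised against FGF-2 RNA with dyes swapped on 2 of 4 arrays. The deposited values of swapped arrays were taken as already running one way. Column medians were -0.0053 to 0.039. Of 15151 features, 8833 had 1 mouse symbol in the chip annotation, 606 several and 5712 none.

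Arrays were centred on their median, features of 1 symbol averaged, and units measured on 3 or more arrays in each group fitted with limma 3.58.1 in R 4.3.3, with 4 group coefficients and a dye term, after tests on simulated data. Tests were two-sided. Alternatives changed the dye term, arrays, title number, centring, scaling, weights, features and single arrays.

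Members and the 27 gene lists were chosen with earlier results of these data known. Named genes are the 15 largest rises and 15 largest falls past the threshold without overlap of arrays and with features of one sign, up to 4 list members past it or else the 2 largest in size, 12 genes set by name, the 5 smallest interaction p-values and the 5 smallest calls. Promoters came from RefSeq (rat build GRCr8), matched by symbol.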

Additional observations from a re-analysis of the deposited data

Results flagged for a closer look

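Within groups of 4 arrays, the highest or lowest array was compared with the spread of its group by Dixon's criterion for the named genes and list means of the PDGF-AA arrays. It was met in 7 of 222 groups (3.15%), where chance gives about 1 in 20, and the arrays were 2 of 12 h and 5 of 6 d.

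Pdgfra, the receptor gene for PDGF-AA, read 2.71 on replicate 4 at 6 d against 0.083 to 0.52 on the other 6 d arrays. The antioxidant gene Sod1 read -2.65 on replicate 2 at 6 d against -0.34 to -0.28. Mrpl1, a mitochondrial ribosomal protein gene, read 4.31 on replicate 3 at 6 d against -0.86 to -0.017. Spred2, the inhibitor of RAS signalling, stood at -0.42 on replicate 1 at 6 d, where the other arrays lay between -0.93 and -0.85. The mean of the 4 ERK feedback and target genes was 0.11 on that same array and -1.25 to -1.03 on the others. At 12 h, Ndufs4, a subunit of respiratory complex I, read 1.29 on replicate 4 against -0.10 to 0.12. The mean of FGF receptors and ligands was -0.23 on replicate 1 at 12 h against -0.0065 to 0.0022.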

How the results depend on the processing

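The count of 135 units between 12 h and 6 d with PDGF-AA was 38 with no dye term, 21 on the 8 arrays alone, 12 with title number in the fit, 11 on arrays of the commonest title number and 204 with array weights. Leaving out 1 array gave 48 to 211, and among these 64, 65 and 85 without replicates 1, 2 and 4 at 12 h, 48 without replicate 2 and 211 without replicate 4 at 6 d. Deposited values without centring (136), scaled arrays (167), quantile normalization (162), robust moderation (135), features tested singly (155) and complete features (135) stayed within 1.5 times. The share of calls that were higher was 59.3%, and 85.7% on the 8 arrays, 75.0% and 81.8% in the fits with title number and on its commonest value. All 135 units kept their direction in every fit by unit, and the interaction had 0 calls wherever it was fitted.

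With title number in the fit, where the 6 d arm is replicate 4 alone, 11 of 27 list medians changed sign, among them those of neural stem and progenitor genes (to 0.32), lysosome genes (to 0.22) and the vacuolar ATPase (to 0.27). Genes that changed sign had not passed. With title number in the fit Gpc1 stood at 0.087, Fgfr1 at -0.39, Fosl2 at -0.18, Gsta4 at 0.20, Bmp1 at 0.15, Mrpl1 at -0.15 and Psmg3 at 0.14. On arrays of the commonest title number Gpc1 stood at 0.12, Fgfr1 at -0.10, C1qa at 0.044, Gsta4 at 0.16, Bmp1 at 0.12 and Psmg3 at 0.14, and with quantile normalization Tnc at -0.023. Over single losses of an array Psmg3 ran from -0.11 to 0.028, Esam from -0.33 to 0.0100, Fgfr1 from -0.33 to 0.80, Fosl2 from -0.38 to 1.22, Mrpl1 from -0.25 to 1.42 and Pdgfra from -0.047 to 0.83. The cause was not tested. No paired analysis was possible because replicate numbers follow accession order. Signal over background is unknown, since only ratios were used, and 4 arrays per group limit the precision.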

Other observations

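Of the 93 named genes past the threshold between 12 h and 6 d with PDGF-AA, those below lie outside the naming rule and the gene lists and were picked after their values were seen. Map7, which links microtubules to kinesin motors, read -0.24, -0.66, 0.044 and -0.19 at 12 h and 0.67, 0.80, 1.10 and 0.98 at 6 d (1.15 ± 0.15, adjusted p = 0.000888 with limma). Gltp, which carries glycolipids between membranes, went from 0.091, 0.10, -0.041 and 0.17 to 0.78, 1.23, 1.90 and 1.42 (1.25 ± 0.20, adjusted p = 0.00454). Bace1, a membrane protease that cuts neuregulin and the amyloid precursor, went from 0.16, 0.032, 0.066 and 0.21 to 0.88, 0.92, 0.93 and 0.95 (0.80 ± 0.13, adjusted p = 0.00454), the tightest of these groups. The protocadherin gene Pcdh7 rose by 0.77 ± 0.13 and the creatine transporter gene Slc6a8 by 0.73 ± 0.13. Of the 8 fits that each left out a PDGF-AA array, Map7, Gltp, Bace1 and Pcdh7 stayed past the threshold in all 8 and Slc6a8 in 7.

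Cell cycle genes not on the mitosis list also passed, and the transcripts lay below the reference at 12 h. Cdca2, which brings a phosphatase to anaphase chromosomes, read -1.27, -1.16, -0.68 and -0.93 at 12 h and -0.06, -0.37, -0.35 and -0.35 at 6 d (0.73 ± 0.15, adjusted p = 0.0231). Ccnf, the F-box cyclin, rose by 0.79 ± 0.17 and Haus6, of the augmin complex that seeds spindle microtubules, by 0.94 ± 0.21. They stayed past the threshold in 4, 2 and 2 of those 8 fits. In Cdca2 and Ccnf replicate 4 at 6 d lay above all 12 h arrays, at -0.35 and 0.37. Chd7, a chromatin remodeller of neural progenitors, went from 0.42, 0.51, 0.15 and 0.17 to -0.33, -0.36, -0.11 and -0.34 (-0.60 ± 0.13, adjusted p = 0.033), and the homeobox gene Meis2 from 0.34, 0.20, 0.43 and 0.34 to -0.55, -0.23, -0.22 and -0.40 (-0.68 ± 0.15, adjusted p = 0.0306). Each of the pair stayed past the threshold in 2 of the 8 fits.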
